A study of Mus musculus with 10 samples.

Results

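The NADPH oxidase of phagocytes and the machinery that attaches LC3 to phagosomes were followed through 9 genes: Cybb, Cyba, Ncf1, Ncf4, Hvcn1, Rubcn, Pik3c3, Becn1 and Map1lc3b. They were chosen by name, as the core of the 2 systems, with earlier results of these data known. They come from the 55414 genes counted in mouse macrophages sorted into Eff+ cells, which had taken up apoptotic cells, and Eff- cells, which had not. All 9 had enough reads to be tested in both of the study's models. In wounds, Map1lc3b rose 1.94-fold in Eff+ cells, and it was the 1 member of 9 that passed the test, beside 11.2% of all tested genes. Its call did not hold when most of the single wound libraries were left out. Cybb and Cyba, which code for the membrane core of the oxidase, lay lower in each Eff+ wound library than in any Eff- wound library. So did Rubcn and Pik3c3, while Ncf4, which codes for a cytosolic subunit, and Becn1 lay higher. None of these genes passed, and wound groups did not overlap, in either direction, for 36.8% of all tested genes. In culture no member passed.

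The phagocyte oxidase transfers electrons from NADPH across the phagosome membrane to oxygen and makes superoxide. Its catalytic subunit gp91phox (Cybb) and the partner p22phox (Cyba) sit in the membrane, and cytosolic subunits that include p47phox (Ncf1) and p40phox (Ncf4) join them, with a Rac GTPase, when the cell is activated. In LC3-associated phagocytosis, a class III phosphatidylinositol 3-kinase built from VPS34 (Pik3c3), Beclin 1 (Becn1), UVRAG and Rubicon (Rubcn) marks the phagosome with phosphatidylinositol 3-phosphate, the oxidase is switched on there, and LC3 (Map1lc3b) is coupled to the phagosome's own membrane. The process is known from macrophages that engulf dead cells, in which it speeds digestion of the cargo and dampens inflammatory cytokines.

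The 6 wound libraries came from skin wounds of LysMCreER/mTmG mice, 3 Eff+ and 3 Eff-, taken at day 3. These mice carry a tamoxifen-inducible Cre under the lysozyme M promoter, which is active in neutrophils as well as in macrophages, and a reporter that Cre recombination switches from red to green, and all wound groups had received tamoxifen over 6 days. The 4 culture libraries, 2 Eff+ and 2 Eff-, came from wild-type bone marrow cells grown for 7 days with GM-CSF, a growth factor that yields dendritic-like cells beside macrophages, and given apoptotic fibroblasts for 12 h. The labels give that treatment for both culture groups, but the column names of the Eff- libraries carry the letters NOAC, so it is unclear whether those cells met apoptotic cells. The labels do not describe the gates, the age of the mice or the source of each replicate, and p-values therefore measure the spread between these libraries, which may be technical. No agent or allele aimed at any of the 9 genes was used.

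The wound libraries held 39735437 to 57308823 counts each and the culture libraries 17622740 to 27261880. Counts of the members were lowest, and counting error largest, for Rubcn in wounds, at 71 to 478 per library. Hvcn1 (280 to 1014) and Pik3c3 (384 to 1038) in wounds came next. Of 12 macrophage markers in wounds, 5 fell in Eff+ cells (among them Adgre1, C1qa, C1qb and Mrc1), 1 rose (Cd14) and 6 did not pass, by edgeR's quasi-likelihood test. The 12 together took 2.10 to 2.69% of counts in Eff+ wound libraries and 1.90 to 2.90% in Eff- ones, and the 10 other than Cd14 and Lyz2 took 0.284 to 0.375% in Eff+ and 0.653 to 0.899% in Eff-. The 2 wound libraries numbered 2 stood apart in Lyz2, the lysozyme gene whose promoter drives the Cre: they read 3417 CPM (counts per 1000000) in Eff+ and 6567 in Eff-, against 3.67 to 8.90 CPM in the other 4. In culture the macrophage markers took 1.95% and 5.67% in the Eff+ libraries 1 and 2, and 0.663% and 6.77% in the Eff- libraries 1 and 2. The 10 other than Cd14 and Lyz2 took 0.479% and 0.809% in Eff+, and 0.238% and 0.740% in Eff-, in the same library order. The 9 dendritic cell markers together took 0.00215 to 0.00615% in Eff+ and 0.0168 to 0.0626% in Eff- culture libraries. None of the 8 tested passed by edgeR's quasi-likelihood test, and their part in the culture values was not tested. The 2 culture libraries numbered 1 also stood apart in the number of genes with a count, 35649 and 44836 against 19649 and 18171 in those numbered 2. In wounds, neutrophil markers also moved with the sort: 17 of 21 tested rose in Eff+ cells and 0 fell (edgeR's quasi-likelihood test; the 4 others did not pass), and the 23 markers together took 3.14 to 3.74% of counts in Eff+ against 0.589 to 1.03% in Eff- libraries. The neutrophil gene Ly6g lay at 20.9 to 38.5 CPM in Eff+ and 2.97 to 5.80 in Eff-, and none of the 23 markers was at 0 in all wound libraries. The 3 eosinophil markers tested rose as well, with Siglecf at 8.18 to 20.6 CPM in Eff+ and 1.39 to 4.05 in Eff- and Epx at 0 throughout, as did 2 of 3 keratinocyte markers tested, Krt5 and Krt14, which were at 0 in Eff- and at most 9.09 and 16.9 CPM in Eff+. Neutrophils and eosinophils also use the oxidase. The part of these cell types, and of the lower macrophage markers, in the wound values of the 9 genes was not tested.

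Upstream sequence is shown for 3 members: Cybb and Ncf1, because each holds a match to the interferon regulatory factor element and the genes of 2 such factors, Irf1 and Irf8, changed in wounds, and Map1lc3b, the member that rose. The RefSeq promoter table in the GRCm38.p6 assembly had entries for Cybb, Cyba, Ncf1, Map1lc3b and Rubcn, and it was searched on both strands over the 250 bases before the annotated start. The motifs searched were the interferon regulatory factor element (in which GAAA recurs after a gap of 2 bases), TGANTCA, the AP-1 site, GAGGAAGT, a core bound by PU.1, and CACGTG, the core of the lysosomal CLEAR element. AGGAAG, the ETS core, was searched as well. The stretches run 5′ to 3′ on the gene's strand, from chrX:9469325-9469574 (minus strand), chr5:134229626-134229875 (minus strand) and chr8:121590188-121590437 (plus strand), and capitals mark the matches.
Cybb: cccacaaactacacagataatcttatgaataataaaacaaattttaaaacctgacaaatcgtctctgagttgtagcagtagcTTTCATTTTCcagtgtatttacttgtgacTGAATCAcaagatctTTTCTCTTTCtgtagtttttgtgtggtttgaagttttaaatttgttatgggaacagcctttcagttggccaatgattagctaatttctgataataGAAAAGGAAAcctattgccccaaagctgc
Ncf1: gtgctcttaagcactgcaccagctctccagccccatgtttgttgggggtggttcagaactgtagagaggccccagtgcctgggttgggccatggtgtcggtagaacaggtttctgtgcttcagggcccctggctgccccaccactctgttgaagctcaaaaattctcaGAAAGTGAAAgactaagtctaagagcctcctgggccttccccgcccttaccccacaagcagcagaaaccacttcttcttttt
Map1lc3b: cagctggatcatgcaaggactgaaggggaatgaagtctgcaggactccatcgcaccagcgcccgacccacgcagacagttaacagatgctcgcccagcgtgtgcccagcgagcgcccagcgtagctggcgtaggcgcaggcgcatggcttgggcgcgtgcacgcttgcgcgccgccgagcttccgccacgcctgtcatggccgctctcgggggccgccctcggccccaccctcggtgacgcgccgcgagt
The Cybb stretch held 3 matches to the interferon regulatory factor element, starting 168, 124 and 29 bases before the start, and 1 AP-1 match 139 bases before it. The Ncf1 stretch held 1 match to the same element, 82 bases before the start. Of 32851 mouse promoter stretches of the same length, 2.98% held the interferon regulatory factor element, 6.75% held TGANTCA, 2.44% held GAGGAAGT and 6.02% held CACGTG. The Map1lc3b and Cyba stretches held none of the motifs searched, and 1 of the 2 Rubcn entries held CACGTG, at 88 bases before its start. A match is a description of the letters and not of binding.

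In the GRCm39 assembly, on which the wound counts were made, Cybb lies on the X chromosome at chrX:9301491-9354010, Cyba at chr8:123151515-123159669, Ncf1 at chr5:134248907-134258479 and Ncf4 at chr15:78129001-78146780. Hvcn1 lies at chr5:122344867-122380360, Rubcn at chr16:32642073-32698136, Pik3c3 at chr18:30405800-30481179, Becn1 at chr11:101176778-101193112 and Map1lc3b at chr8:122317100-122325499. Counts are summed over all exons of a gene, untranslated regions included. The wound counts were made without regard to strand, so reads from exons shared with a gene on the opposite strand cannot be assigned and, by that program's default, are not counted. Shared exons make up 44.2% of the exon length of Hvcn1 (shared with Tctn1), 43.9% of Becn1 (with Cntd1) and 11.1% of Ncf1 (with Gtf2ird2). The shared part of the other members was at most 2.29%, in Rubcn.

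Per kilobase of exon, transcripts for the membrane core exceeded those for most other members. In Eff- wound cells Cyba stood at 1523 ± 73.2 CPM per kilobase (SD, n = 3) and Cybb at 180 ± 23.5, beside Ncf4 at 196 ± 15.4. Map1lc3b (54.8 ± 5.93) and Ncf1 (53.3 ± 13.0) followed and could not be separated by their spread, nor could Ncf4 and Cybb. Becn1 stood at 16.4 ± 1.29, Pik3c3 at 4.42 ± 0.027 and Hvcn1 at 4.10 ± 1.53, the last 2 within their spread, and Rubcn was lowest at 0.843 ± 0.37. Per kilobase of exon shared with no other gene, Becn1 stood at 29.3 and Hvcn1 at 7.34 in Eff- wound cells, and Hvcn1 then lay above Pik3c3 (4.42) in the mean, from 4.32, 9.70 and 7.99 in the 3 libraries. In Eff+ wound cells the order of the means was Cyba (1264), Ncf4 (295), Cybb (129), Map1lc3b (106.4) and Ncf1 (92.7). Becn1 (23.1), Hvcn1 (3.49), Pik3c3 (2.89) and Rubcn (0.327) followed, all in CPM per kilobase. Cybb, Map1lc3b and Ncf1 could not be separated by their spread, nor could Hvcn1 and Pik3c3. In Eff+ library 2 Ncf1 (127.7) lay above Cybb (125.5) and Map1lc3b (111.4). Ncf4 stood above Cybb in every Eff+ wound library, with ratios per kilobase of 2.02, 2.74 and 2.14. It stood near Cybb in Eff- libraries, with ratios of 0.934, 1.25 and 1.12.

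**Figure D1:**
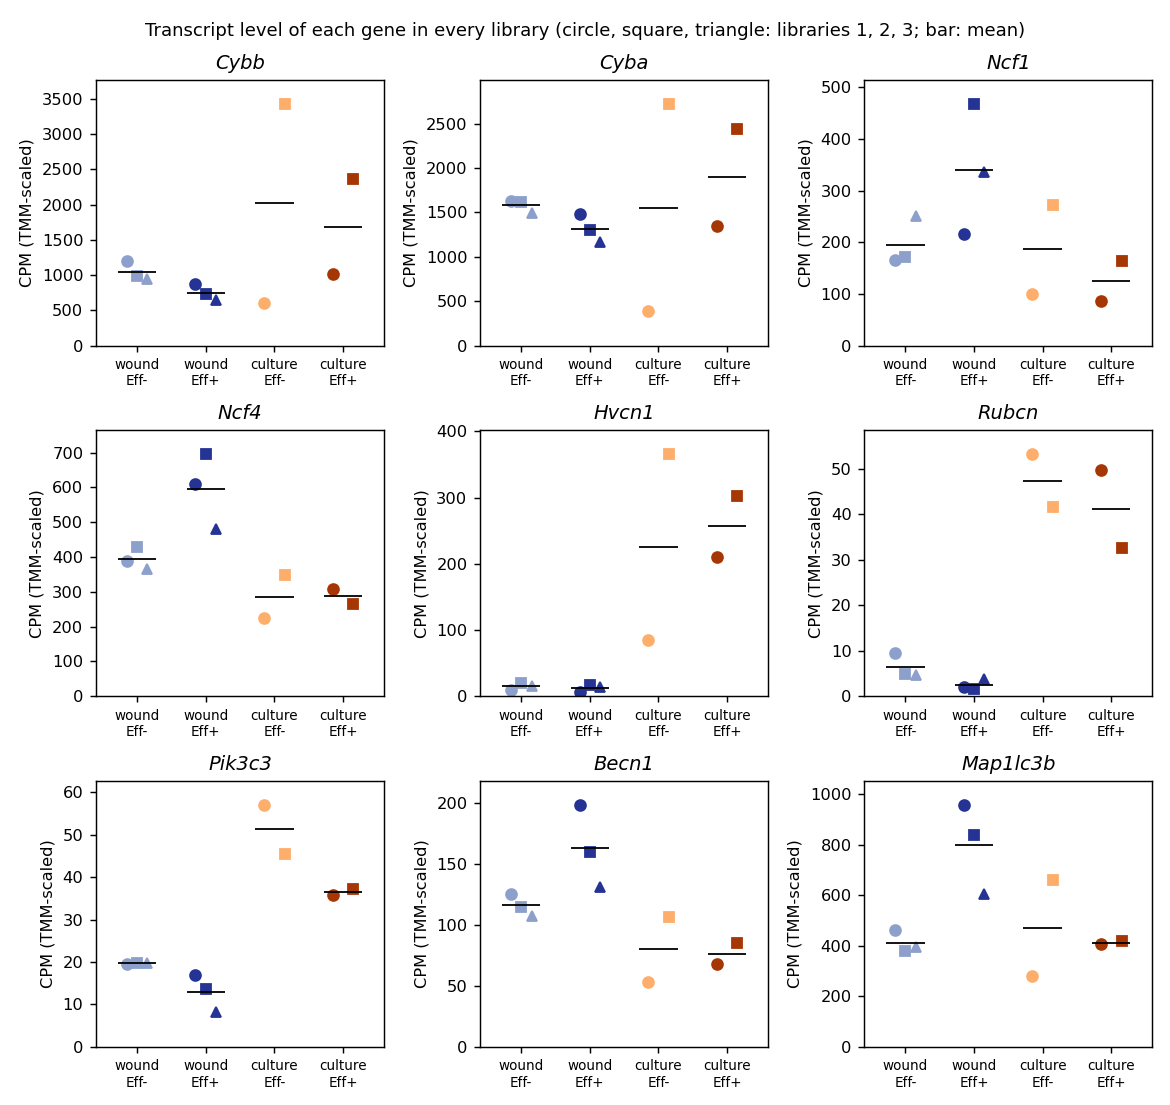
CPM of the 9 members in each library, 1 panel per gene with wound groups at left and culture groups at right, where circles, squares and triangles are libraries 1, 2 and 3 and bars are group means. Map1lc3b, Ncf4 and Becn1 are higher in all Eff+ wound libraries than in any Eff- wound library, Cybb, Cyba, Pik3c3 and Rubcn are lower, and in culture the widest gaps, in Cyba and Cybb, lie between the 2 Eff- libraries.

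Of the membrane core in wounds, Cybb read 868, 729 and 645 CPM in Eff+ libraries 1, 2 and 3, and 1199, 984 and 946 CPM in Eff- libraries 1, 2 and 3. The 3 Eff+ values lay below the 3 Eff- values with no overlap, yet the difference (log2 fold change -0.48, SE 0.19) did not pass, with an adjusted p of 0.143. Cyba read 1478, 1296 and 1166 CPM in Eff+ and 1630, 1622 and 1495 CPM in Eff- cells. These groups did not overlap either, by a narrow margin, and the log2 fold change of -0.27 (SE 0.18) had an adjusted p of 0.353. Hvcn1 codes for the voltage-gated proton channel that balances the charge the oxidase moves, and it read 6.33, 17.4 and 13.6 CPM in Eff+ and 8.60, 19.3 and 15.9 in Eff- libraries. Its groups overlapped, the log2 fold change was -0.23 (SE 0.42, adjusted p 0.753), and library 1 was lowest in both groups.

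The 2 cytosolic subunits among the members lay on the other side. Ncf4, whose product p40phox binds phosphatidylinositol 3-phosphate on phagosomes, read 611, 695 and 480 CPM in Eff+ and 389, 428 and 367 CPM in Eff- wound libraries. The groups did not overlap, and the log2 fold change of 0.59 (SE 0.19) missed the threshold with an adjusted p of 0.0836. Ncf1, whose product p47phox organises the complex, read 215, 468 and 336 CPM in Eff+ against 165, 171 and 250 CPM in Eff-. Eff+ library 1 fell within the Eff- range, and the log2 fold change of 0.80 (SE 0.30) had an adjusted p of 0.125.

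Ratios of 2 genes within a library do not depend on how libraries are scaled, and those to Cybb were taken after the values were seen, so they carry no test. Ncf4 to Cybb was 2.09-fold higher in Eff+ by the means of the values above, and Map1lc3b to Cybb 2.69-fold higher (0.851, 0.888 and 0.726 against 0.298, 0.296 and 0.324). Ncf1 to Cybb overlapped, with 0.393, 1.02 and 0.825 in Eff+ and 0.218, 0.275 and 0.419 in Eff- libraries. Cyba to Cybb, the ratio of the 2 membrane subunits, was 9.51, 9.94 and 10.1 against 7.60, 9.22 and 8.83, a small gap beside that of Ncf4. In culture the Ncf4, Ncf1 and Map1lc3b ratios overlapped between Eff+ and Eff-, and that of Cyba to Cybb did not (7.42 and 5.78 against 3.57 and 4.44). In bulk samples a change in the mix of cells and a change of RNA per cell cannot be told apart, and markers of macrophages, neutrophils and other cells moved with the wound sort as given above.

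**Figure D2:**
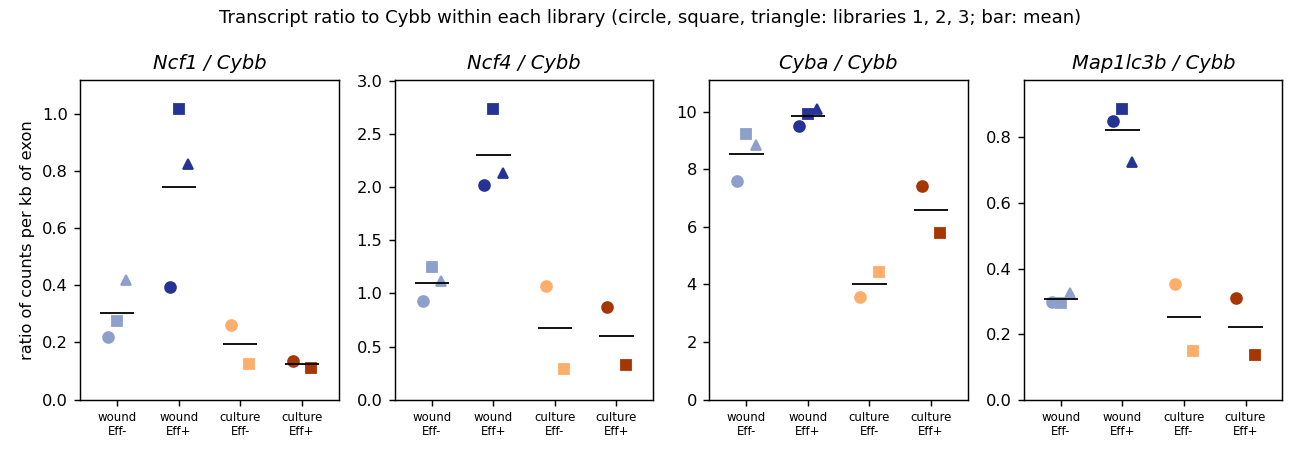
Ratio of each gene to Cybb, both per kilobase of exon, within each library, for wound and culture, Eff+ and Eff-, where circles, squares and triangles are libraries 1, 2 and 3 and bars are group means. In wounds the Ncf4 and Map1lc3b ratios of all 3 Eff+ libraries lie above those of all 3 Eff- libraries.

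Among the kinase subunits in wounds, Rubcn, the gene of Rubicon, read 2.08, 1.52 and 3.73 CPM in Eff+ and 9.50, 4.85 and 4.57 CPM in Eff- libraries. It had the lowest fold change of the 9, at -1.37 on the log2 scale (SE 0.47), with no overlap and an adjusted p of 0.0970, and it was also the least expressed. Pik3c3, the catalytic subunit's gene, read 16.8, 13.6 and 8.27 CPM in Eff+ and 19.6, 19.8 and 19.8 CPM in Eff- cells. The Eff- values were close together and the Eff+ values spread below them (log2 fold change -0.61, SE 0.27, adjusted p 0.176). Becn1 read 198, 159 and 131 CPM in Eff+ and 126, 115 and 107 CPM in Eff-, again with no overlap (log2 fold change 0.49, SE 0.19, adjusted p 0.130). Becn1 to Pik3c3 per kilobase was 7.45, 7.41 and 10 in Eff+ and 4.05, 3.68 and 3.42 in Eff- wound libraries, also chosen after the values were seen.

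Map1lc3b, the gene of the LC3 protein coupled to phagosomes and autophagosomes, read 957, 837 and 606 CPM in Eff+ wound libraries and 462, 377 and 396 CPM in Eff- ones. The lowest Eff+ library lay above the highest Eff- library, the log2 fold change was 0.96 (SE 0.21), and the adjusted p was 0.0313. With 1 library left out at a time, the log2 fold change ran from 0.81 to 1.12. The call held without Eff+ library 3 (adjusted p 0.0324) and ended without any 1 of the other 5, with adjusted p of 0.0599 without Eff+ 1, 0.123 without Eff+ 2, 0.0736 without Eff- 1, 0.123 without Eff- 2 and 0.0785 without Eff- 3. Without both libraries numbered 2, which stood apart in Lyz2, the log2 fold change was 0.86 and the adjusted p 0.316. Scaled by library totals alone, which moved the median of all genes from -0.03 to -0.42, its log2 fold change was 0.56 with an adjusted p of 0.0786.

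In wounds, then, 1 of 9 members passed at an adjusted p under 0.05, in the higher direction, and none in the lower. Over the 14908 tested genes 11.2% passed, 7.39% in the higher and 3.79% in the lower direction, so 1 in 9 is near that background. Groups did not overlap for 7 of 9 members, against 36.8% of all tested genes, for 3 of 9 in the higher direction (18.7% of all genes) and for 4 of 9 in the lower (18.1%). The members had no common direction: their median log2 fold change was -0.23, beside -0.03 over all tested genes. At an unadjusted p under 0.05 the count was 6 of 9, beside 29.9% of all genes. The 9 were chosen with earlier results of these data known, so these shares describe the set and carry no test. DESeq2 called Map1lc3b, Ncf1 and Ncf4 higher and Rubcn lower, beside 21.1% of all genes. Scaling by library totals alone called Cybb, Cyba, Pik3c3 and Rubcn lower and no member higher, beside 22.6% of all genes.

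**Figure D3:**
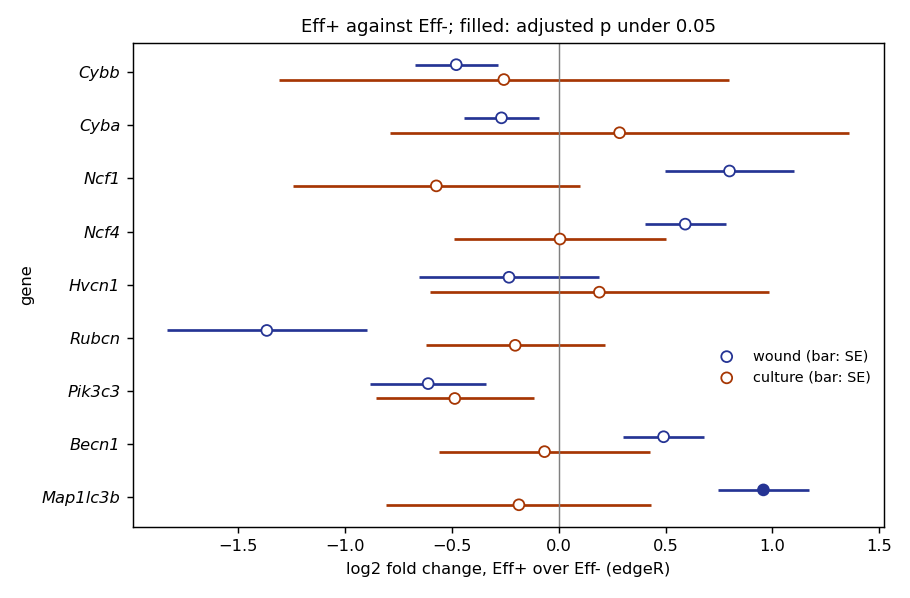
Log2 fold change, Eff+ over Eff-, of the 9 members in wound and culture, with bars of 1 standard error each way. The filled point, Map1lc3b in wounds, passed at an adjusted p under 0.05, and the culture bars of the oxidase core genes Cybb and Cyba are wide and cross 0.

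In culture, the largest spread lay between libraries of the same group. Cybb read 1017 and 2360 CPM in Eff+ libraries 1 and 2, and 608 and 3427 CPM in Eff- libraries 1 and 2, so that Eff- library 2 was 5.63 times library 1 and Eff+ library 2 was 2.32 times library 1. Cyba read 1350 and 2438 CPM in Eff+ and 388 and 2722 CPM in Eff-, a 7.01-fold gap within Eff- and a 1.81-fold gap within Eff+. Hvcn1 read 211 and 303 CPM against 85.3 and 365, with gaps of 1.44-fold in Eff+ and 4.28-fold in Eff-. In each of these 3 genes both Eff+ values lay between the 2 Eff- values, and the log2 fold changes were -0.26 for Cybb, 0.28 for Cyba and 0.19 for Hvcn1. The macrophage marker sum moved the same way between the libraries, as given above. Without Cd14 and Lyz2 it was also higher in library 2 than in library 1 of each group, but highest in Eff+ library 2. The part of these markers in the gaps was not tested.

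The other members in culture differed less between the 2 Eff- libraries. Between the Eff+ libraries this did not hold, as Ncf1 (1.88-fold) differed more than Cyba (1.81-fold) and Hvcn1 (1.44-fold). Ncf1 read 87.1 and 163 CPM in Eff+ and 100 and 273 in Eff- libraries. Ncf4 read 309 and 266 CPM in Eff+ and 226 and 347 in Eff-, with a log2 fold change of 0.01. Map1lc3b, which rose in wounds, read 407 and 418 CPM in Eff+ and 279 and 659 in Eff- cultures (log2 fold change -0.19), so the Eff+ values were close together and inside the Eff- range. Becn1 did likewise, with 67.7 and 85.2 against 53.4 and 107 CPM. Rubcn read 49.7 and 32.6 CPM in Eff+ and 53.1 and 41.7 in Eff-, which overlap. Pik3c3 was the member whose culture groups did not overlap, with 35.8 and 37.3 CPM in Eff+ and 57.0 and 45.5 in Eff- (log2 fold change -0.49, SE 0.37).

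No member passed in culture by edgeR's quasi-likelihood test, nor did any of the 14867 genes tested, a background of 0%. DESeq2 called 2 genes (0.0135%) and no member, and at an unadjusted p under 0.05 edgeR gave 115 genes and 0 of the 9 members. Groups did not overlap for 1 of 9 members, against 20.7% of all tested genes. Pik3c3 was in the lower direction, which 9.42% of all genes shared, and no member was in the higher one, which held 11.3%. With 2 libraries a group and gaps of this size, a 2-fold difference could not be detected: simulated 2-fold and 4-fold differences on these 14867 genes were recovered in 0% of cases. In the 2 libraries numbered 2 alone, a choice made after seeing the data and without a test, all 9 members were lower in Eff+ (median log2 difference -0.35), beside 49.6% of all tested genes. In those numbered 1, 3 of 9 were lower and the median was 0.46.

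The difference between the wound and culture fold changes was tested in 1 model over all 10 libraries. By edgeR's quasi-likelihood test none of 20270 genes passed (0%), and so none of the 9 members. At an unadjusted p under 0.05 there were 2222 genes and 0 members, and DESeq2 called 797 genes and no member. Map1lc3b had a difference of 1.17 on the log2 scale (SE 0.57, adjusted p 0.481), Ncf1 of 1.40 (SE 0.69) and Rubcn of -1.16 (SE 0.64). The rise of Map1lc3b in wounds was therefore not shown to differ from its value in culture. Without culture Eff- library 2 the differences were -2.59 for Cyba and -1.98 for Cybb. These values rest on the single Eff- culture library left, so no test of them is read here.

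Set side by side and without a test, since the 2 models were counted and deposited in separate tables, Hvcn1 lay at 6.33 to 19.3 CPM in wound libraries and 85.3 to 365 CPM in culture, and Rubcn at 1.52 to 9.50 and 32.6 to 53.1 CPM. Both ranges stood apart between models. So did those of Pik3c3, at 8.27 to 19.8 CPM in wounds and 35.8 to 57.0 in culture. Ncf4 (367 to 695 in wounds, 226 to 347 in culture) and, narrowly, Becn1 (107.3 to 198, 53.4 to 106.8) stood apart in the other direction. The share of all genes whose ranges stood apart was not counted. Hvcn1 is also known from B cells. The B cell markers, 6 genes, together took at most 0.0228% of wound counts and at most 0.00706% of culture counts.

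The wider pathway was read through 67 genes in 9 lists, of which 60 were tested in wounds: 10 rose, 1 fell and 49 did not pass, and the 10 that rose are 16.7% of those tested, against 7.39% of all genes. Their median log2 fold change was 0.48, beside -0.03 over all tested genes. Wound groups did not overlap for 23 of 60 genes in the higher direction (38.3%, beside 18.7% of all genes) and for 9 in the lower (15.0%, beside 18.1%). Scaled by library totals alone, 16 of the 60 passed, 5 higher and 11 lower, and the median was 0.08 beside -0.42 over all genes. Every one of these calls ended without Eff+ wound library 2, when no gene of the 60 or of the whole table passed (smallest adjusted p 0.0576 over the table, while 3260 genes had an unadjusted p below 0.05). The same held when both wound libraries numbered 2 were left out (0 genes, smallest adjusted p 0.198, with 2212 genes at an unadjusted p below 0.05). Markers of neutrophils, eosinophils and macrophages moved with the same sort, and their part was not tested.

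Of the oxidase partners, 1 of 5 rose, and the share of all tested genes to set beside this and each list below is 7.39%. Rac2, the GTPase gene used by the oxidase of blood phagocytes, read 841, 762 and 527 CPM in Eff+ and 449, 335 and 308 in Eff- wound libraries (log2 fold change 0.96, SE 0.24, adjusted p 0.042). Rac1 had a log2 fold change of 0.35 and did not pass, and 51.4% of its exon length is shared with Daglb on the other strand. Of the 7 other oxidase genes, Nox4 was the one with enough reads to be tested (1.41, SE 1.69), and it did not pass. Among 7 activators Syk rose, the tyrosine kinase below Fc receptors and integrins, from 149, 147 and 155 CPM in Eff- to 271, 387 and 284 CPM in Eff+ (1.06, SE 0.18, adjusted p 0.0155). Prkcd, the kinase gene whose product phosphorylates p47phox, and Vav1 had log2 fold changes of 0.62 and 0.55 and did not pass. Of the enzymes that supply NADPH, none of 5 tested passed by edgeR, and values were 0.10 for Pgd and 0.84 for Taldo1. Idh1 (-0.75, adjusted p 0.0719) and Tkt (-0.43, adjusted p 0.0837), named after their values were seen, lay lower in Eff+ with no overlap.

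The other kinase subunits followed no single member. None of 6 passed by edgeR: Uvrag, the subunit shared with LC3-associated phagocytosis, had a log2 fold change of 0.37 and Nrbf2 of 0.44. Pik3r4 (-0.52), the gene of the kinase's regulatory subunit, and Atg14 (-0.63), of its autophagy form, lay lower in Eff+ with no overlap, as Pik3c3 did, and were named after their values were seen. In the LC3 conjugation list 1 of 15 rose, Gabarap, an LC3 relative, which read 795, 889 and 767 CPM in Eff+ and 489, 510 and 551 in Eff- (0.66, SE 0.16, adjusted p 0.0403). Atg3 and Atg7, whose enzymes couple LC3 to lipid, had 0.94 and 0.67 and did not pass. Of 10 genes that initiate canonical autophagy, 2 rose: Atg2a, a lipid transfer protein gene (1.47, SE 0.18, adjusted p 0.0097), and Atg101, a subunit of the ULK1 kinase complex (0.82, SE 0.18, adjusted p 0.0279), while Rb1cc1 (0.87) and Wipi2 (0.51) did not pass. Of 5 receptors that tie cargo to LC3, 2 rose. Optn read 121, 204 and 151 CPM in Eff+ and 26.2, 24.2 and 43.8 in Eff- (2.34, SE 0.30, adjusted p 0.0097), the highest fold change among the genes called here. Tax1bp1 had a log2 fold change of 1.15 (SE 0.19, adjusted p 0.0132), and Sqstm1 (0.53) and Nbr1 (0.45) did not pass.

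Of 6 transcription factor genes known from oxidase gene control, 3 rose and 1 fell in wounds, beside 7.39% and 3.79% of all tested genes. These calls, too, ended without Eff+ wound library 2. Neutrophil markers rose with the same sort, and their part in these values was not tested. Cebpb rose by 1.30 on the log2 scale (SE 0.20, adjusted p 0.0122) and Cebpe, a factor of late granulocyte maturation, by 1.41 (SE 0.33, adjusted p 0.0361), with 2.98 to 5.20 CPM in Eff- and 7.41 to 13.2 CPM in Eff+. Irf1 read 239, 246 and 211 CPM in Eff+ and 146, 94.1 and 149 in Eff- (0.84, SE 0.21, adjusted p 0.0423). Irf8, a factor that acts on the Cybb promoter, read 71.5, 49.5 and 72.3 CPM in Eff+ and 130, 110.1 and 117 in Eff- (-0.89, SE 0.19, adjusted p 0.0280). Spi1, the gene of PU.1, had 0.46 and Runx1 0.13, and neither passed. In culture none of 61 tested pathway genes passed by edgeR, with 0 at an unadjusted p under 0.05 and 0 by DESeq2, and the median log2 fold change was -0.12.

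**Figure D4:**
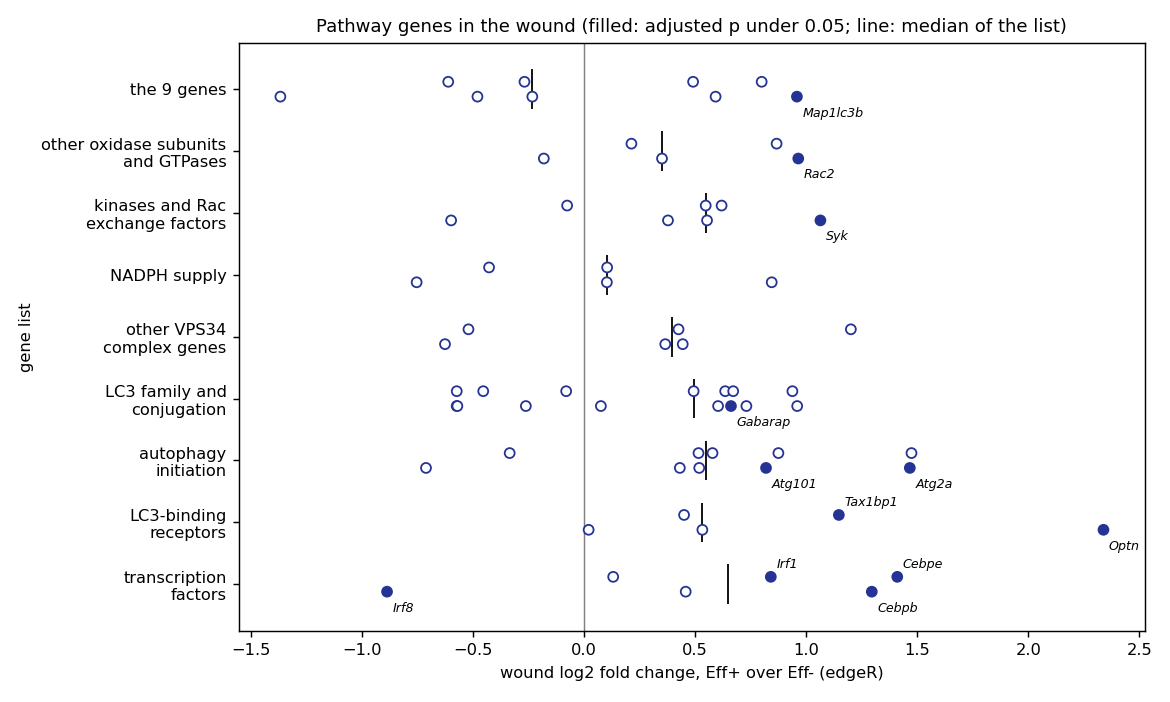
Log2 fold change, Eff+ over Eff- in wounds, of the 9 members and of the tested genes of the pathway lists, 1 band per list, with filled points at an adjusted p under 0.05 and a vertical line at the median of each list (the list of other oxidases, with 1 tested gene, is left out). The 11 pathway genes that passed are spread over 6 lists with Optn at the far right and Irf8 at the far left of the filled points.

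The genes whose pattern over the 10 libraries was most like that of Cybb, by Pearson correlation of log2 CPM centred within each model, were Timp2 (0.994), Tax1bp3 (0.992), Ctsc (0.990), Tmem50a (0.989) and Hadhb (0.988). Among the members Cyba was closest to Cybb, at 0.925. For Map1lc3b they were B9d2 (0.980), Syf2 (0.980), Cdk2ap2 (0.979), Ik (0.977) and Rac2 (0.977), with Becn1 at 0.940 and Ncf4 at 0.913 among the members. These values describe 10 points that share libraries, and the wide culture gaps weigh heavily in them.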

How the data were processed

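Polyadenylated RNA was sequenced from 10 libraries of sorted mouse macrophages. The authors deposited raw counts of reads per gene in 2 tables, 1 for each model. Wound counts were made with featureCounts 1.6.0 without a strand option on Ensembl annotation of GRCm39, per the file headers. Reads were trimmed with Trimmomatic 0.39, per the submitters' processing notes. Not given in the sources used here are the aligner and how the culture reads were counted. The culture table holds 4 columns of other libraries, which were not used. Gene names were found for 52081 of 55414 identifiers, which hold 99.9% of counts.

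Each model was fitted on its own with edgeR 4.0.16 in R 4.3.3 (quasi-likelihood test, TMM scaling, filterByExpr), with Benjamini-Hochberg adjustment over all tested genes and a threshold of 0.05. The difference between models was fitted over all 10 libraries. CPM are counts per 1000000 on TMM-scaled totals, and fold changes are Eff+ over Eff-. Alternatives were other scalings, no filter, DESeq2 1.42.0, limma 3.58.1 (voom), a replicate block, each library left out, wound libraries numbered 2 left out, and marker genes of other cell types left out before scaling. Named are all members, each pathway gene called, and the 2 others of highest level per list, of which 1 is not reported here. The 9 members, the lists and the tests were chosen with earlier results of these data known. No 2 replicates agreed within sampling noise. The wound test was checked on simulated data, in which 8% of 2-fold and 43% of 4-fold changes were recovered over 14908 genes. In it 8 unchanged genes were called as well. The simulation changed few genes, while 29.9% of real wound genes had an unadjusted p under 0.05 by edgeR, so its rates may not carry over.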

Additional observations from a re-analysis of the deposited data

Results flagged for a closer look

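For 5 of 60 pathway genes tested in both models (8.33%) the wound and culture groups did not overlap and pointed in opposite directions, beside 6.72% of all 13091 genes tested in both. Atg2a had a log2 fold change of 1.47 in wounds and -0.62 in culture, where it read 29.5 and 16.1 CPM in Eff+ and 39.1 and 30.8 in Eff- cells. Ulk1, the kinase gene that starts autophagy, had 0.58 and -1.14, and Irf1 had 0.84 and -0.77. Rubcnl, the gene of the Rubicon relative Pacer, had 1.20 and -0.29. Atg10, an enzyme gene of the conjugation step, went the other way, with -0.57 and 0.81. None of the 5 passed the test of the difference between models by edgeR's quasi-likelihood test: adjusted p was 0.159 for Atg2a, 0.236 for Ulk1, 0.292 for Irf1, 0.414 for Atg10 and 0.422 for Rubcnl.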

How the results depend on the processing

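Among the 9 members in wounds, Hvcn1 was the one whose direction turned under any alternative, between -0.55 and 0.083 as each library was left out. The count of members called in wounds was 1, and 4 with library totals only, 4 by DESeq2, 0 to 1 with each library left out and 0 without both libraries numbered 2. Pathway genes called were 11 (10 higher), and 16 with totals only (5 higher), 26 by DESeq2, 0 to 9 with each library left out and 0 without both numbered 2. Over all tested genes 1666 were called, and 3368 with totals only, 3150 by DESeq2 and 0 to 1347 with each library left out. The share called higher was 66.1%, and 21.2% with totals only, a scaling that turned Rac1 (-0.049), Pgd (-0.28), Uvrag (-0.030) and Runx1 (-0.26). Pgd was also -0.028 without both libraries numbered 2 and -0.053 to 0.32 with each library left out.

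The deviations of same-numbered wound libraries correlated at 0.41, 0.017 and 0.23 for numbers 1, 2 and 3. Eff+ libraries 1 and 3 correlated best with the Eff- library of their own number, and Eff+ library 2 with Eff- library 3 (0.15). Differently numbered libraries ran from -0.35 to 0.15, and both libraries numbered 2 stood apart in Lyz2. Whether the number marks a shared source is not stated in the labels and was not settled, and the main fit used no block. With the number as a block, 2985 wound genes, 2 members (Map1lc3b and Ncf4) and 21 pathway genes were called. In culture, with 2 libraries a group, the correlation is by construction the same for both numbers (0.74). There the block called 48 genes and no member, and turned Cybb to 0.10 and Becn1 to 0.0080. In the difference between models the block called 1 pathway gene and 441 genes.

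Culture directions depended on the library. With each left out, Cybb ran from -0.99 to 1.77, Cyba from -0.49 to 2.58, Ncf1 from -1.09 to 0.62, Ncf4 from -0.24 to 0.64, Hvcn1 from -0.47 to 1.88, Rubcn from -0.50 to 0.20, Becn1 from -0.45 to 0.81, Map1lc3b from -0.64 to 0.85 and Rubcnl from -0.39 to 0.093. Cybb was 0.080 and Becn1 0.0059 with voom. Ncf4 was -0.042 with RLE scaling, -0.048 with totals only and -0.042 by DESeq2. Without the filter Rubcn was 0.076 and Becn1 0.095. In libraries numbered 2 alone Cyba was -0.16, Ncf4 -0.39 and Hvcn1 -0.27. Culture calls over all genes were 0, and 0 to 27 with each library left out, 2 without the filter and 2 by DESeq2.

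For the difference between models, members called were 0, and 0 to 2 with each library left out. Pathway genes called were 0, and 2 without the filter, 5 by DESeq2 and 0 to 5 with each library left out. All genes called were 0, and 517 without the filter, 797 by DESeq2 and 0 to 2009 with each library left out. Cybb ran from -1.98 to 0.54, Cyba from -2.59 to 0.25, Hvcn1 from -1.86 to 0.27, Pik3c3 from -0.35 to 0.15 and Becn1 from -0.057 to 0.96. Pik3c3 was 0.033 with RLE scaling and by DESeq2. The cause of these changes was not tested. The lowest member counts were those of Rubcn, Hvcn1 and Pik3c3 in wounds, and the number of libraries limits all tests.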
